A study of Rattus norvegicus with 65 samples.

Results

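The livers of rats given a single dose of the compound titled ME were compared with those of rats given a single dose of the compound titled SN, with 3 rats in each group. These 6 arrays, chosen by their titles, were 6 of 24 in a test set without untreated controls and of 65 in the whole series, which profiled the liver response to 10 hepatocarcinogens. All animals were male Sprague-Dawley rats 6 weeks old, liver RNA of each rat went onto 1 Affymetrix array, and the values are log2 signals. ME short and SN short are labelled as 1 dose and 3 hours, whereas the treatment text says that autopsy followed a day later, so only the titles' words short and long are used. The labels give the dose as 300 for ME and 50 for SN with no unit, so the groups differ in compound and in dose together. The other test set groups of 3 rats are ME long and SN long (3 doses of the same amounts), DCP short and DCP long (1 and 3 doses of 50) and Urethane short and Urethane long (1 and 3 doses of 500).

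The design text lists methyleugenol and sodium nitrite among the compounds without pairing names with abbreviations. They are the only listed names that no other title accounts for, so ME and SN probably stand for them, and the titles' words are kept here. As background, methyleugenol is an aromatic constituent of herb oils that liver cytochrome P450 and sulfotransferase enzymes turn into a product that binds DNA. Nitrite oxidises the iron of hemoglobin, is a source of nitric oxide, and forms nitrosamines with amines in acid. Hepatocytes make much heme for their cytochromes P450, and the pathway is governed at its first enzyme, encoded by Alas1, which drugs induce through nuclear receptors and heme represses.

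One value per gene was used, from the probe set with the highest mean among those with exactly 1 gene symbol. Dim genes were left out by asking for a signal over the test set's median in 2 or more arrays, which left 10213 genes. The calls come from limma's moderated test, with 1 mean per group in a fit of the 24 test set arrays, at a p under 0.05 after Benjamini-Hochberg adjustment. Differences are ME short minus SN short on the log2 scale, with their standard error. An exact permutation test of 3 rats against 3 cannot go below p = 0.1, so the calls rest on the spread that limma pools across genes and groups.

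The arrays carry markers of the labelled tissue. The 19 tested hepatocyte markers averaged log2 12.3 to 12.5 in ME short and 12.3 to 12.4 in SN short. Rats of 1 group correlated at r = 0.977 to 0.982 in ME short and at 0.987 to 0.989 in SN short across genes, which are not independent replicates. The 3′ minus 5′ probe difference of Gapdh, a sign of RNA quality, was 0.433, 0.501 and 0.527 in ME short and 0.568, 0.682 and 0.680 in SN short, with no overlap. Its part in the results below was not tested.

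ME rats 1 and 2 stood apart from the other 4 rats in clock genes. Npas2, a transcription factor of the positive arm of the clock, was at log2 6.03, 6.16 and 8.58 in ME short, against 8.58, 8.74 and 8.62 in SN short. Dbp, a clock output gene of the opposite phase, was at 9.31, 9.98 and 6.49 in ME short, against 7.46, 7.17 and 6.95 in SN short. The mean of the 4 clock genes Bmal1, Npas2, Clock and Cry1 minus that of the 5 output genes Dbp, Nr1d1, Nr1d2, Per3 and Tef was -1.90, -2.26 and 0.68 in ME short, against -0.04, 0.17 and -0.05 in SN short. No gene of the clock list was called between the groups, and ME rat 3 did not share the direction of ME rats 1 and 2. ME rat 1 stood apart a second time, in macrophage markers, whose 14 tested members averaged log2 10.6, 9.38 and 9.80 in ME short and 8.95, 9.07 and 9.42 in SN short.

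**Figure D1:**
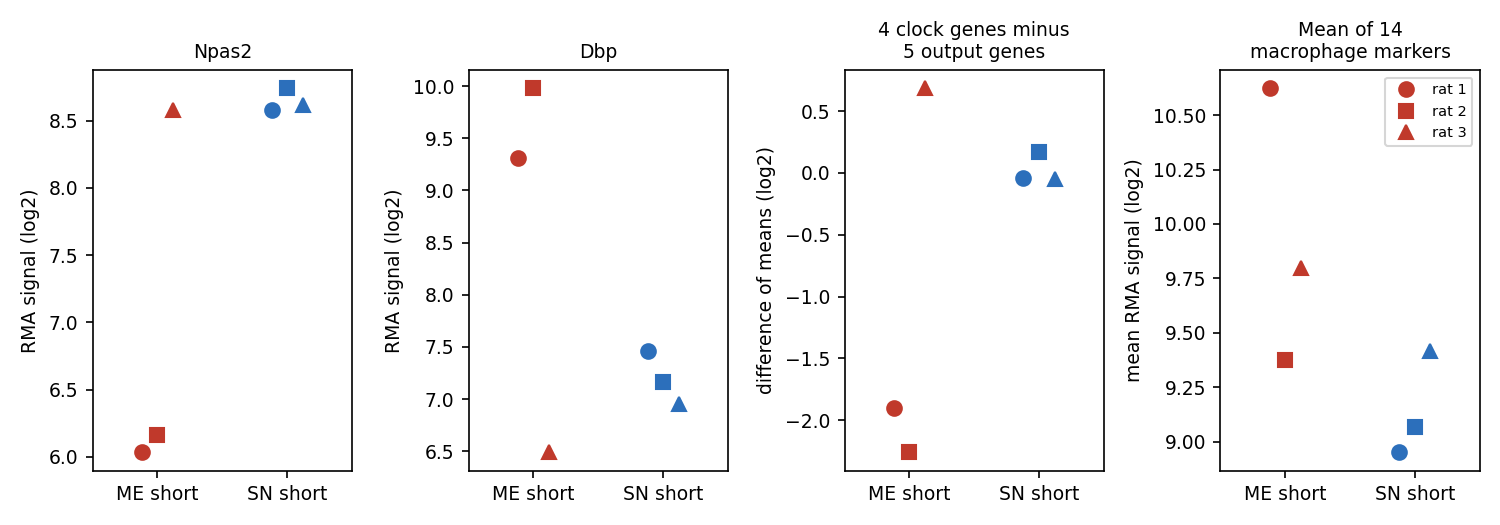
Clock and macrophage genes in each rat of ME short (left, red) and SN short (right, blue), with 1 symbol per rat and log2 signals or differences of mean log2 signals on the y axes. ME rats 1 and 2 lie at -1.90 and -2.26 in the clock difference while ME rat 3 (0.68) and the SN rats (-0.05 to 0.17) lie near or above 0, and ME rat 1 has the highest macrophage mean (10.6).

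ME short and SN short differed in 173 of 10213 genes (1.69%). In ME short 37 genes were higher (0.362%) and 136 were lower (1.33%), and the median over all tested genes was -0.03. Of the called genes, 8 were at least 2-fold higher and 15 at least 2-fold lower, and in 169 of 173 the rats of the groups did not overlap, as was so in 17.6% of all tested genes. Without a rat in turn the count ran from 56 (10 higher, without SN rat 2) through 100 (without SN rat 1) to 291 (184 higher, without ME rat 2). With ME rat 3 alone against SN short 26 genes were called, 6 higher and 20 lower, of which 17 were among the 173. That arm is 1 rat assumed to vary like the other groups, so its calls are no replicate check. Of the 28 named genes below, Ly6c, Plcl1, Mgarp, Stxbp6, Myo5b and Thrb were called in it and the other 22 were not. In a fit of only the 6 compared arrays 0 genes were called by limma, none of the 28 named genes among them, with 1136 at an unadjusted p under 0.05. With all 65 arrays in 1 fit 225 were called, 100 higher and 125 lower, and after each array was shifted to 1 median 59 were higher and 113 lower.

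The 14 genes with the largest rises covered the first step of heme synthesis, iron uptake, the AP-1 factor Jun and genes of white blood cells. The 14 with the largest falls included long genes for signalling and membrane traffic proteins, the thyroid hormone receptor gene Thrb and lipoprotein lipase. Both sets are the named genes of the comparison, taken by size of difference among called genes without overlap of rats.

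**Figure D2:**
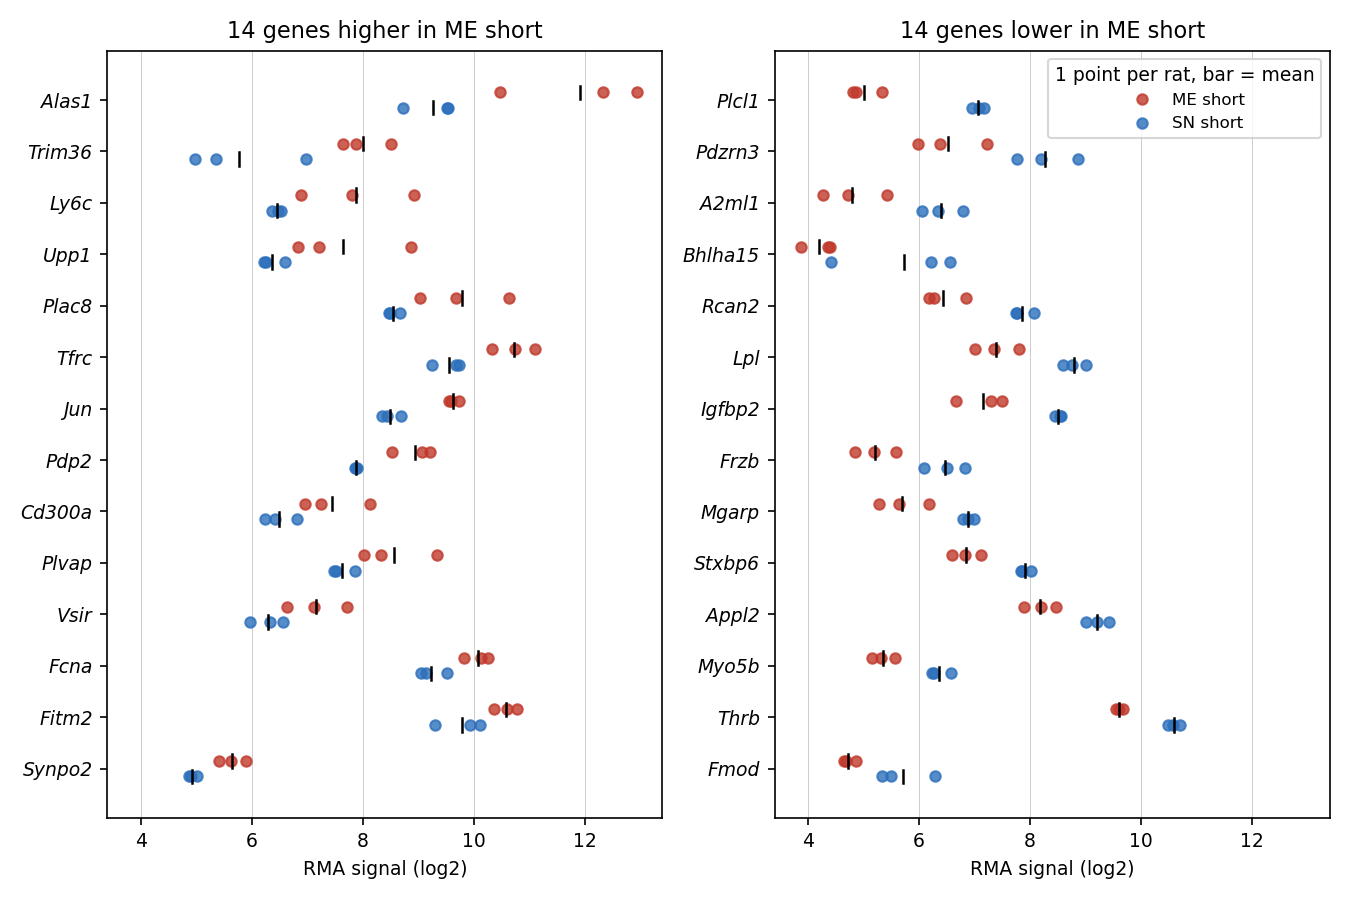
Log2 signal (x axis) of the 14 genes highest (left) and the 14 genes lowest (right) in ME short relative to SN short, with 1 point per rat, ME short in red above SN short in blue, and bars at group means. The rats do not overlap in any of the 28 genes, and the points of Alas1 spread most among the ME rats, from 10.5 to 12.9.

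Alas1, which encodes the rate-limiting enzyme of liver heme synthesis, rose most. Its level was log2 12.33, 12.94 and 10.47 in ME short, against 9.54, 9.52 and 8.72 in SN short. All ME rats lay above all SN rats, and ME rats 1 and 2, those that stood apart in clock genes, were the highest. The difference was 2.65 ± 0.41 (adjusted p = 0.00261), a 6.30-fold difference in signal. It was 2.14 ± 0.32 with the clock difference as a covariate (adjusted p = 0.00307). With ME rat 3 alone it was 1.21 ± 0.34 and was not called (adjusted p = 0.154). ME short had the highest and SN short the lowest mean of the 8 test set groups, the others running from 9.66 in DCP short to 11.3 in ME long.

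Both directions count in Alas1. Against the mean of DCP short and Urethane short, ME short was 1.65 and SN short -1.01 apart. After quantile normalization of all 65 columns, the only way to set them beside untreated rats of the other sets, Alas1 averaged 12.1 in ME short and 9.50 in SN short. The untreated rats lay at 11.0 to 11.3 in the genotoxic set and at 10.9 to 11.3 in the nongenotoxic set. The sets appear to have been normalized apart, so these levels carry a set difference too.

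The Alas1 promoter is shown because Alas1 led the comparison and its start region holds a known kind of element for NRF1, the nuclear respiratory factor that drives genes of mitochondrial function. The RefSeq sequence (GRCr8, chr8:115768593-115768892, minus strand, 250 bases before to 50 after the annotated start) runs 5′ to 3′, with matches to the NRF1 motif in capitals.
Alas1 promoter: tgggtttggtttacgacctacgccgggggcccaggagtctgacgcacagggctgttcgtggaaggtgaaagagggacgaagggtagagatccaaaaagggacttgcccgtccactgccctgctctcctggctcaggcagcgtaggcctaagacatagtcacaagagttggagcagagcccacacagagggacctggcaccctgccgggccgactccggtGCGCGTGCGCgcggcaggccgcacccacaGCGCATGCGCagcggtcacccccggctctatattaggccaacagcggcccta
The motif, GCGCA and GCGC with any 1 base between them, was searched on both strands and matched at offsets -31 and -2 from the start. It is held by 4.25% of 33469 RefSeq rat promoters of the same length. Other motifs were searched too. The dioxin response element core, GCGTG, matched at offset -29, inside the NRF1 match at -31, and is held by 29.7% of those promoters. A match is a description of the letters and shows no binding.

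Tfrc, the transferrin receptor gene through which cells take up iron, rose as well. It was at log2 11.11, 10.74 and 10.33 in ME short, against 9.73, 9.69 and 9.24 in SN short, again with no overlap. The difference was 1.17 ± 0.22 (adjusted p = 0.01), and a further probe set gave 1.53. SN short was the lowest of the 8 groups and DCP short, at 11.4, the highest. Against DCP short and Urethane short together, ME short was at 0.04 and SN short at -1.13. After quantile normalization Tfrc averaged 10.96 in ME short and 9.80 in SN short. Untreated rats lay at 9.31 to 9.58 in the genotoxic and at 9.29 to 9.34 in the nongenotoxic set, levels that carry a set difference too. With ME rat 3 alone Tfrc was at 0.78 and not called (adjusted p = 0.316). Of 20 tested heme and red cell genes, Alas1 and Tfrc were the only members called (2 higher, against 0.362% of all tested genes), 18 were not, and the list's median difference was -0.07.

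Jun, an immediate early gene and a subunit of the AP-1 transcription factor, rose by 1.13 ± 0.18 (adjusted p = 0.00319). It was at 9.60, 9.56 and 9.73 in ME short, against 8.35, 8.44 and 8.70 in SN short. The ME rats agreed closely, and neither ME rat that stood apart in clock genes was the highest. Jun's other 2 probe sets that passed the filter gave 1.08 and 0.68. With ME rat 3 alone the difference was 1.23 ± 0.27, not called (adjusted p = 0.059), and it was not called either in 1 fit of all arrays. Both groups were far below DCP short, at 12.1, and above Urethane short, at 7.99. After quantile normalization Jun averaged 9.88 in ME short and 8.72 in SN short, and its untreated rats ranged from 8.57 to 9.83 in the genotoxic and from 8.47 to 10.2 in the nongenotoxic set. Of 25 immediate early genes tested, Jun alone was called (1 higher, against 0.362% of all tested genes), and their median difference was 0.05.

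Trim36, a tripartite motif ubiquitin ligase gene, rose by 2.24 ± 0.45 (adjusted p = 0.0148). Its levels were 8.51, 7.88 and 7.65 in ME short, against 6.98, 4.98 and 5.36 in SN short, where the rats spread over more than 1 log2. DCP short, at 7.88, and Urethane short, at 7.17, lay between the groups compared, and ME long was at 5.51 and SN long at 4.82. The call was lost without ME rat 1, SN rat 2 or SN rat 3 in turn.

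White blood cell and vessel genes made up much of the rest. Ly6c, a surface antigen of monocytes, was at 8.93, 6.89 and 7.82 in ME short, against 6.54, 6.47 and 6.37 in SN short, a rise of 1.42 ± 0.31 (adjusted p = 0.0246). Plac8, a gene of myeloid cells, rose by 1.24 ± 0.30, Cd300a, an inhibitory receptor of leukocytes, by 0.96 ± 0.22, and Vsir, an immune checkpoint gene, by 0.87 ± 0.20. Fcna, a lectin gene of complement activation, rose by 0.84 ± 0.17, and Plvap, a diaphragm protein gene of fenestrated endothelium, by 0.95 ± 0.24. In these 6 genes and in Upp1, a uridine phosphorylase gene (1.28 ± 0.31), ME rat 1 was highest, ME rat 3 next and ME rat 2 lowest. That is the order of the macrophage mean, and it was seen in 7 of the 14 highest genes. Without ME rat 1 none of Ly6c, Plac8, Cd300a, Plvap, Vsir and Fcna was called. Ly6c, Upp1, Plac8 and Plvap each lost the call without SN rat 1, 2 or 3 in turn. Plvap (adjusted p = 0.0489) lost it under 12 of the alternatives, among them both changes of the filter and the replicate block. Macrophage markers themselves were higher at an unadjusted p under 0.05 in 11 of 14, but none passed adjustment, with a median difference of 0.84 and no overlap of rats in 6. The share of all tested genes higher at that unadjusted p was 6.30%, and the share higher with no overlap was 5.86%. Gpnmb was at 1.34 ± 0.45 and Adgre1, an adhesion receptor gene of macrophages, at 1.14 ± 0.45. After quantile normalization, means in ME short, SN short and untreated rats of the genotoxic and nongenotoxic sets were 8.15, 6.75, 7.89 and 7.45 for Ly6c. They were 10.0, 8.77, 10.5 and 9.81 for Plac8, 7.72, 6.78, 7.55 and 7.34 for Cd300a, and 7.43, 6.60, 7.69 and 7.45 for Vsir. Fcna had 10.3, 9.49, 10.0 and 9.59, and Plvap 8.84, 7.86, 7.90 and 7.68. These levels carry a set difference too, and the rises are relative to SN short. In whole liver, more cells of a type and more RNA per cell cannot be told apart.

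The remaining 3 of the 14 highest have roles in metabolism and the cytoskeleton. Pdp2, a phosphatase gene that activates pyruvate dehydrogenase, was at 9.07, 9.21 and 8.52 in ME short, against 7.86, 7.89 and 7.87 in SN short, a rise of 1.06 ± 0.19 (adjusted p = 0.00843). A further probe set of Pdp2 gave 0.74. Fitm2, a gene of lipid droplet formation, rose by 0.79 ± 0.18, but its other probe set, which passed the filter, gave only 0.20. Synpo2, an actin-binding protein gene, rose by 0.72 ± 0.14. Its 3 other probe sets, none of which passed the filter, gave 0.02, -0.02 and 0.06. Pdp2 kept its call without each rat in turn, as did Alas1, Tfrc and Jun, but none of these 4 was called with ME rat 3 alone (Pdp2 at 0.65, adjusted p = 0.329). Fitm2 lost its call without ME rats 1 or 2 or SN rats 1 or 3, and Synpo2 without SN rat 2.

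Plcl1 fell most. It encodes a phospholipase C relative without catalytic activity that binds inositol phosphates and phosphatases. It was at log2 5.33, 4.82 and 4.86 in ME short, against 6.96, 7.09 and 7.17 in SN short. The gap between the groups exceeded the spread within either. The difference was -2.07 ± 0.17 (adjusted p = 1.67e-06), and it was -2.21 ± 0.22 with ME rat 3 alone (adjusted p = 0.000155). SN short stood out rather than ME short. The 7 other groups averaged 5.00 to 5.80, and against DCP short and Urethane short ME short was at -0.14 and SN short at 1.93. After quantile normalization Plcl1 averaged 5.40 in ME short and 7.32 in SN short, with untreated rats at 5.38 to 5.45 and 4.91 to 5.27.

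Thrb, which encodes the main thyroid hormone receptor of the liver, fell by 0.98 on the log2 scale (SE 0.11, adjusted p = 0.000127). Its levels were 9.54, 9.61 and 9.67 in ME short, against 10.49, 10.71 and 10.57 in SN short. ME short was the lowest and SN short the highest of the 8 groups. Of its other 3 probe sets, those that passed the filter gave -0.65 and -0.75, and the third, which did not pass, gave -0.11. With ME rat 3 alone it was at -0.92 (adjusted p = 0.0192), with the spread taken from the other groups.

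Rcan2, a gene for a regulator of calcineurin, was at 6.17, 6.27 and 6.84 in ME short, against 7.74, 8.08 and 7.76 in SN short, a difference of -1.43 ± 0.21 (adjusted p = 0.00144). Stxbp6, a SNARE-binding protein gene, was at 6.61, 6.83 and 7.12 in ME short, against 8.02, 7.84 and 7.86 in SN short, a difference of -1.05 ± 0.13 (adjusted p = 0.000206). Myo5b, the motor of recycling endosomes, was at 5.58, 5.15 and 5.31 in ME short, against 6.26, 6.58 and 6.24 in SN short, a difference of -1.02 ± 0.11 (adjusted p = 0.000104). In all 3 genes, ME short had the lowest mean of the 8 groups. Against DCP short and Urethane short, Stxbp6 was at -1.28 in ME short and at -0.23 in SN short. Stxbp6 and Myo5b were still called with ME rat 3 alone, and Rcan2 was not (-1.02, adjusted p = 0.135).

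A further 4 of the lowest genes have unlike roles. Lpl, the lipase gene that clears triglyceride from plasma, was at 7.80, 7.01 and 7.35 in ME short, against 8.59, 9.02 and 8.76 in SN short, a difference of -1.40 ± 0.31 (adjusted p = 0.0233). Igfbp2, a binding protein of insulin-like growth factors, was at -1.36 ± 0.31, and Appl2, an endosomal adaptor, at -1.03 ± 0.17. Bhlha15, a transcription factor of secretory cells, was at -1.52 ± 0.36, with SN rat 3 (4.41) only just above the highest ME rat (4.39). Lpl, Appl2 and Bhlha15 were highest of the 8 groups in SN short. The call of Igfbp2 was lost without each rat but ME rat 2, that of Lpl without ME rat 2, SN rat 2 or SN rat 3, and that of Bhlha15 without ME rats 1 or 3 or SN rats 1 or 2.

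The other 5 of the lowest 14 were Pdzrn3, a ubiquitin ligase gene (-1.74 ± 0.36), A2ml1, a protease inhibitor gene (-1.60 ± 0.40), Frzb, a secreted Wnt antagonist (-1.27 ± 0.23), Mgarp, a mitochondrial protein gene (-1.19 ± 0.20), and Fmod, a collagen-binding proteoglycan (-0.98 ± 0.24). A2ml1 was the least secure, losing its call under 13 of the alternatives. Mgarp and Frzb were called without each rat in turn, Pdzrn3 was not without SN rats 2 or 3, and Fmod was not without ME rats 1 or 3 or SN rats 1 or 2.

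Setting each group beside DCP short and Urethane short showed on which side the named genes lay. Both comparisons share those 6 arrays and are given side by side, with no test between them. The genes were chosen for ME short lying above or below SN short on the same arrays, which largely fixes these directions, so nothing is read from the counts against the shares of all genes. Of the 14 highest genes, 8 were higher in ME short (1201 of all tested genes, 11.8%, were higher there) and 6 were lower in SN short (6.27% of all genes). Their medians were 0.62 in ME short and -0.43 in SN short. Of the 14 lowest, 5 were lower in ME short (7.41% of all genes) and 11 were higher in SN short (16.7%), with medians of -0.37 in ME short and 0.86 in SN short. Of all 136 genes called lower, 63 were lower and 6 higher in ME short, and 69 were higher and 0 lower in SN short. After quantile normalization the genes higher than in DCP short and Urethane short numbered 877 of 1760 called in ME short and 1135 of 1915 in SN short, so the balance of directions in these backgrounds depends on the scaling.

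**Figure D3:**
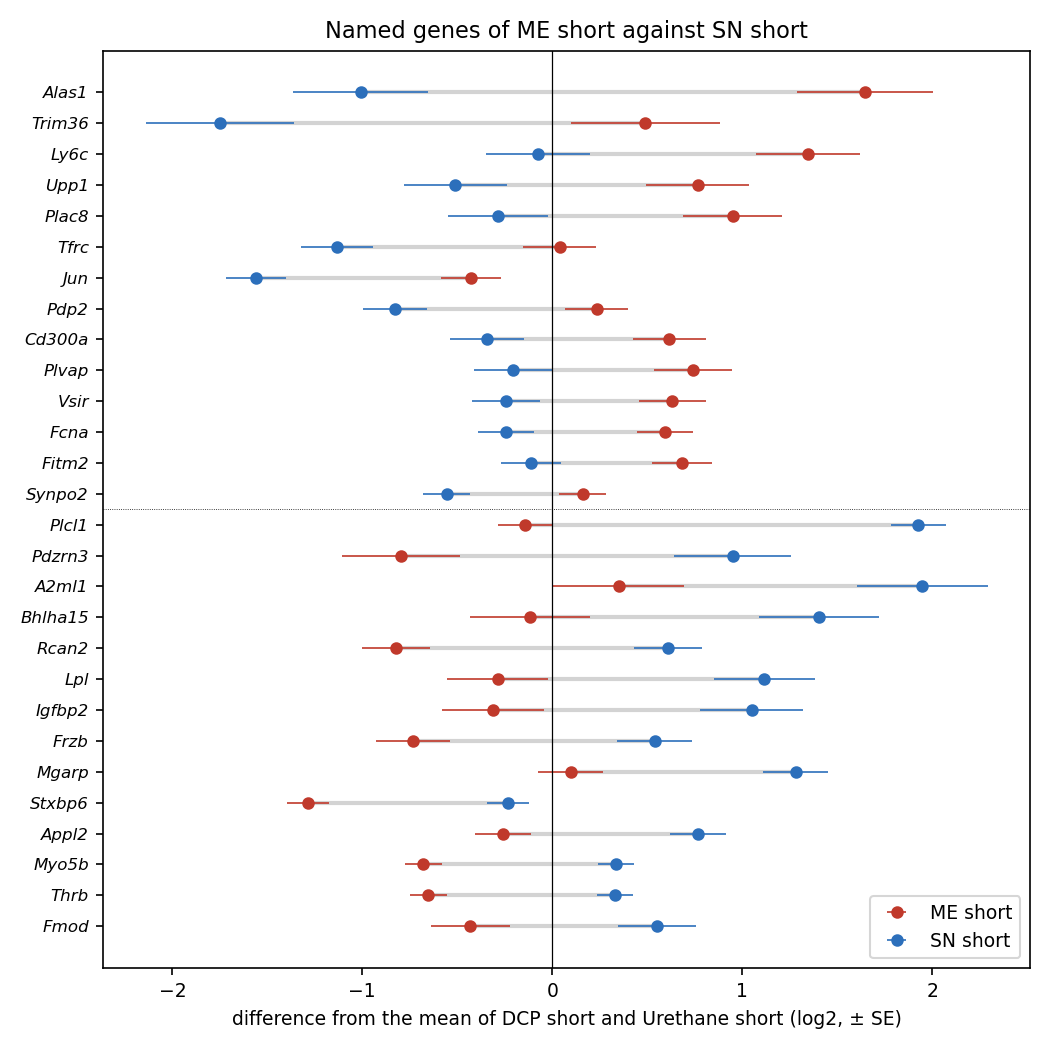
Difference from the mean of DCP short and Urethane short (x axis, log2, with SE) in ME short (red) and SN short (blue) for the 14 highest genes (above the dotted line) and the 14 lowest (below it). Alas1 lies at 1.65 in ME short and -1.01 in SN short, while Plcl1 lies near 0 in ME short (-0.14) and at 1.93 in SN short.

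Many of the genes that fell were long. Length here is the span of the gene record on the genome in RefSeq GRCr8, which 99.6% of tested genes have, and it was examined after the called genes had been seen, so it is described without a test. The 136 genes called lower had a median length of 160 kb, and 87 of them (64.0%) were over 100 kb. The 37 called higher had a median of 19.2 kb, and 1 of them, Synpo2, was over 100 kb. Among all tested genes the median was 23.1 kb and 12.5% were over 100 kb. Of the 14 lowest genes 6 were over 200 kb, namely Plcl1 (337 kb), Pdzrn3 (226 kb), Rcan2 (217 kb), Stxbp6 (237 kb), Myo5b (300.2 kb) and Thrb (349 kb).

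The shift covered long genes as a class. Genes up to 10 kb had a median difference of -0.001 and 0.350% were called lower. In the next classes, 10 to 30 kb and 30 to 100 kb, the medians were -0.01 and -0.04, and 0.498% and 0.788% were called lower. From 100 to 200 kb the median was -0.11 and 4.10% were called lower, and from 200 to 400 kb it was -0.19 with 12.1%. Over 400 kb, where 102 genes were tested, it was -0.17 with 13.7%. Each ME rat showed it: over the 313 genes of 200 to 400 kb the median against the mean of SN short was -0.15, -0.28 and -0.17 in ME rats 1, 2 and 3. Long genes had lower signals on the arrays. Among genes averaging log2 6 to 8, the median was -0.16 in 562 genes over 100 kb and -0.02 in 3251 shorter ones, and among those at 8 to 10 it was -0.16 and -0.03. Under 6 it was -0.05 in the long and 0.01 in the shorter genes, and over 10 it was -0.09 in 91 long genes, of which 1 was called lower, and -0.008 in the shorter ones. The part of signal level in the pattern was not tested.

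Set beside the mean of DCP short and Urethane short, the length pattern lay mostly on the ME side. Those groups were not alike. From 200 to 400 kb the median level was log2 7.13 in ME short, 7.30 in SN short, 7.20 in DCP short and 7.33 in Urethane short. Over 400 kb it was 6.93 in ME short, 6.96 in DCP long and 6.92 in Urethane long, so a low level of long genes was not particular to ME short. Against DCP short and Urethane short, the median of ME short was 0.08 in genes up to 10 kb, -0.10 from 200 to 400 kb and -0.12 over 400 kb. The median of SN short was 0.07, 0.08 and 0.03 in the same classes. In ME long minus SN long it was -0.0052, -0.0007 and -0.0053. With the clock difference as a covariate the median over genes above 200 kb was -0.18, as it was without it, and with ME rat 3 alone it was -0.17. Across all settings tried it ran from -0.24 to -0.15.

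**Figure D4:**
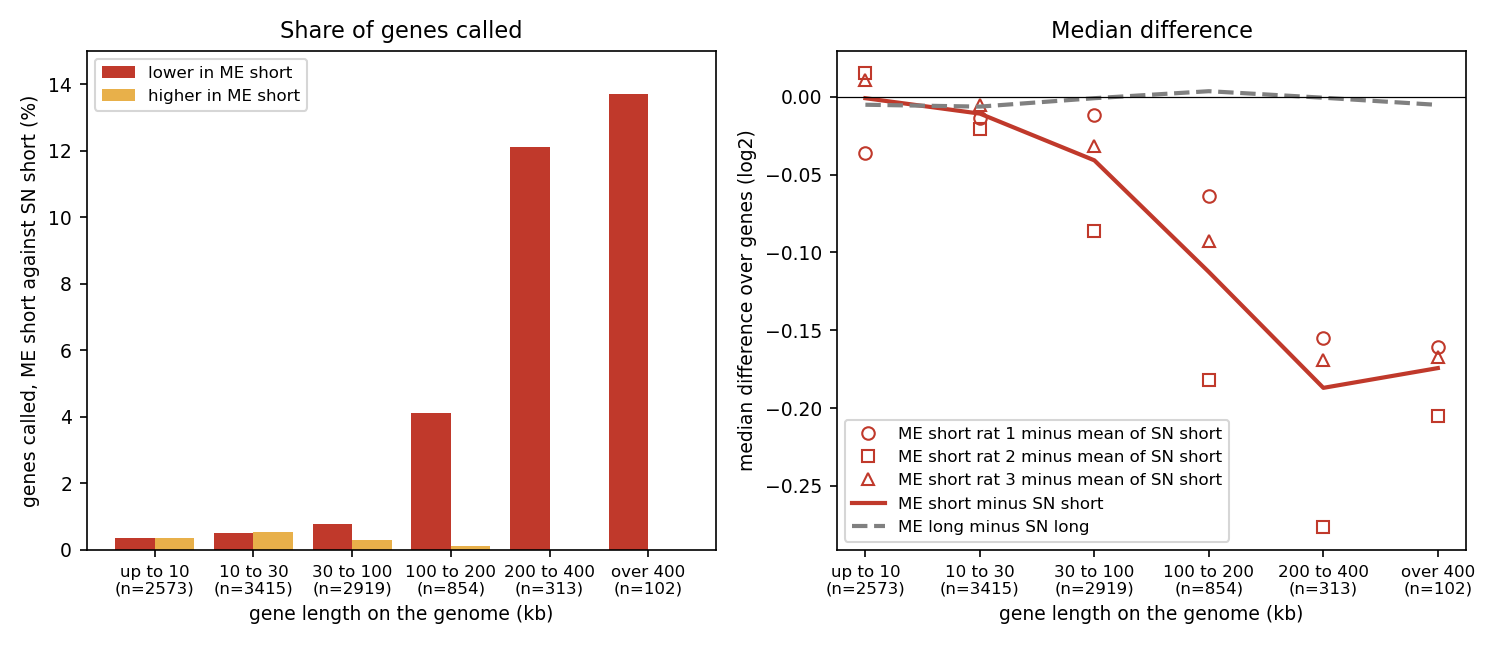
Left, share of tested genes (y axis, %) called lower (red) or higher (yellow) in ME short than in SN short, by gene length class (x axis, kb, with the number of genes). Right, median log2 difference per class for ME short minus SN short (red line), for each ME short rat minus the mean of SN short (symbols) and for ME long minus SN long (dashed), with the short comparison at -0.19 from 200 to 400 kb and the long one near 0.

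Fixed lists of liver pathways and cell types were mostly without calls. In 30 of 35 lists no tested member passed. The lists held 1 to 37 tested genes and 1.69% of all tested genes were called, so at that share few calls would be found. The absence of calls in a list, here and below, is therefore not read as a result about its pathway or cell type. Besides the heme and immediate early genes above, Alas1 was also the only called member of 19 CAR and PXR targets, the genes that drugs induce. Their median was 0.05, and 0.362% of all tested genes were called higher.

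Among 23 hypoxia targets, 2 fell (1.33% of all genes did) and none rose, with a median of -0.16. Ero1a, an oxidase gene of the endoplasmic reticulum, was at 8.41, 8.35 and 8.08 in ME short, against 9.09, 9.30 and 9.04 in SN short, a difference of -0.86 ± 0.10 (adjusted p = 0.000167). Tpi1, a glycolysis gene, was at -0.29 ± 0.05 (adjusted p = 0.00919). Rats did not overlap in 8 members that were lower, against 11.8% of all genes. Against DCP short and Urethane short, 7 members were higher and 1 lower in ME short (11.8% and 7.41% of all genes), and 9 were higher and 2 lower in SN short (16.7% and 6.27%). Tpi1 was not called with ME rat 3 alone. Lect2, a secreted hepatocyte protein gene, fell by 0.28 on the log2 scale (adjusted p = 0.0246). It was the only called member of 10 pericentral markers (1.33% of all genes were called lower), and the median of that list was 0.03. The call of Lect2 was lost under 7 alternatives, among them the shift to 1 median, all arrays in 1 fit, the clock covariate, ME rat 3 alone and leaving out ME rat 2 or SN rat 2.

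The fixed lists of p53 targets and of foreign compound metabolism held no called gene beyond Alas1. No list was drawn up for DNA repair. Outside the lists, Prkdc, a kinase gene of DNA end joining picked after its values were seen, was called lower (-0.39 ± 0.07, adjusted p = 0.012). The 21 p53 targets had a median of -0.03, and the 29 NRF2 targets -0.05. The 5 AHR targets had a median of 0.15. Cyp1a1 was at 7.05, 5.66 and 4.38 in ME short, against 4.38, 4.63 and 4.75 in SN short, so that ME rats 1 and 2 were above and ME rat 3 was not. The 17 sulfotransferase and glucuronosyltransferase genes had a median of -0.09 and the 8 metal response genes of -0.01.

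Stress and inflammation lists held no called gene other than Jun. The 25 integrated stress response genes had a median of -0.28, with Fgf21 at -1.38 ± 0.47 (adjusted p = 0.139) and 7 members lower at an unadjusted p under 0.05, which 10.8% of all genes were. Hspa1a, an inducible heat shock gene, was at 7.50, 7.57 and 6.53 in ME short, against 6.87, 9.51 and 10.5 in SN short, a wide spread in SN short. The medians were 0.06 over 21 heat shock genes, 0.06 over 21 endoplasmic reticulum chaperones and 0.09 over 29 acute phase genes. The 25 interferon response genes had a median of 0.37 and 10 were higher at an unadjusted p under 0.05, against 6.30% of all genes. Their mean level was 8.57, 8.15 and 8.49 in ME short and 8.09, 8.02 and 8.09 in SN short, without overlap, and Gbp2 was at 1.50 ± 0.50 (adjusted p = 0.13) with ME rat 1 highest. The macrophage markers, of which 11 of 14 were higher at that p, had their highest mean in ME rat 1 too, and their part in the interferon values was not tested.

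Metabolic lists held no called gene. Medians were 0.20 over 26 glucocorticoid and fasting genes, 0.18 over 20 cholesterol synthesis genes, -0.07 over 21 insulin and lipogenesis genes, -0.07 over 37 PPAR alpha targets and -0.06 over 23 bile acid genes. They were 0.03 over 32 amino acid breakdown and urea cycle genes, 0.00 over 24 methionine and polyamine genes and 0.00 over 27 growth hormone dependent genes. Sds, which breaks down serine and follows fasting, was at 12.1, 12.1 and 10.8 in ME short, against 10.7, 10.5 and 10.1 in SN short, yet was not called (1.22 ± 0.82). The 21 clock genes had a median of 0.19. The 37 proliferation genes had a median of -0.27, with Mki67 at -0.94 ± 0.42 (adjusted p = 0.256).

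No marker list of another cell type held a called gene. Median differences were 0.46 over the 5 tested of 18 leukocyte markers on the array, 0.06 over 12 endothelial, -0.03 over 18 stellate and fibroblast and -0.15 over 4 cholangiocyte markers. Of pancreas, adipose and muscle markers 2, 3 and 1 were tested, with medians of -0.42, 0.40 and 0.14. The 19 hepatocyte markers had a median of 0.00 and the 12 periportal ones of 0.03.

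Whether the ME and SN difference changed between short and long was asked with an interaction term. It was called in 12 genes (0.117%), 3 of them with a higher (0.0294%) and 9 with a lower difference (0.0881%) at short than at long. Plcl1 (-1.61 ± 0.24), Rcan2 (-1.82 ± 0.29), Stxbp6 (-1.08 ± 0.18) and Thrb (-0.92 ± 0.16), 4 of the 14 lowest genes, were among the 9. None of the 14 highest was called in the interaction, with values from 0.72 to 2.36. Both sets were chosen by their difference at short on the same arrays. That choice pushes the interactions of the lowest genes down and those of the highest up, so nothing is read from these counts. Plcl1 averaged 5.34 ± 0.07 in ME long and 5.80 ± 0.04 in SN long (SD, n = 3), a smaller gap on the same side as in the short groups. Rcan2 averaged 7.91 ± 0.24 in ME long and 7.52 ± 0.40 in SN long, on the opposite side. Alas1 averaged 11.3 ± 0.31 in ME long and 11.0 ± 0.25 in SN long. With single rats left out the count ran from 7, without ME long rat 3 or SN long rat 1, to 78, without ME short rat 3. It was 19 without ME short rat 1 and 21 without SN short rat 3.

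**Figure D5:**
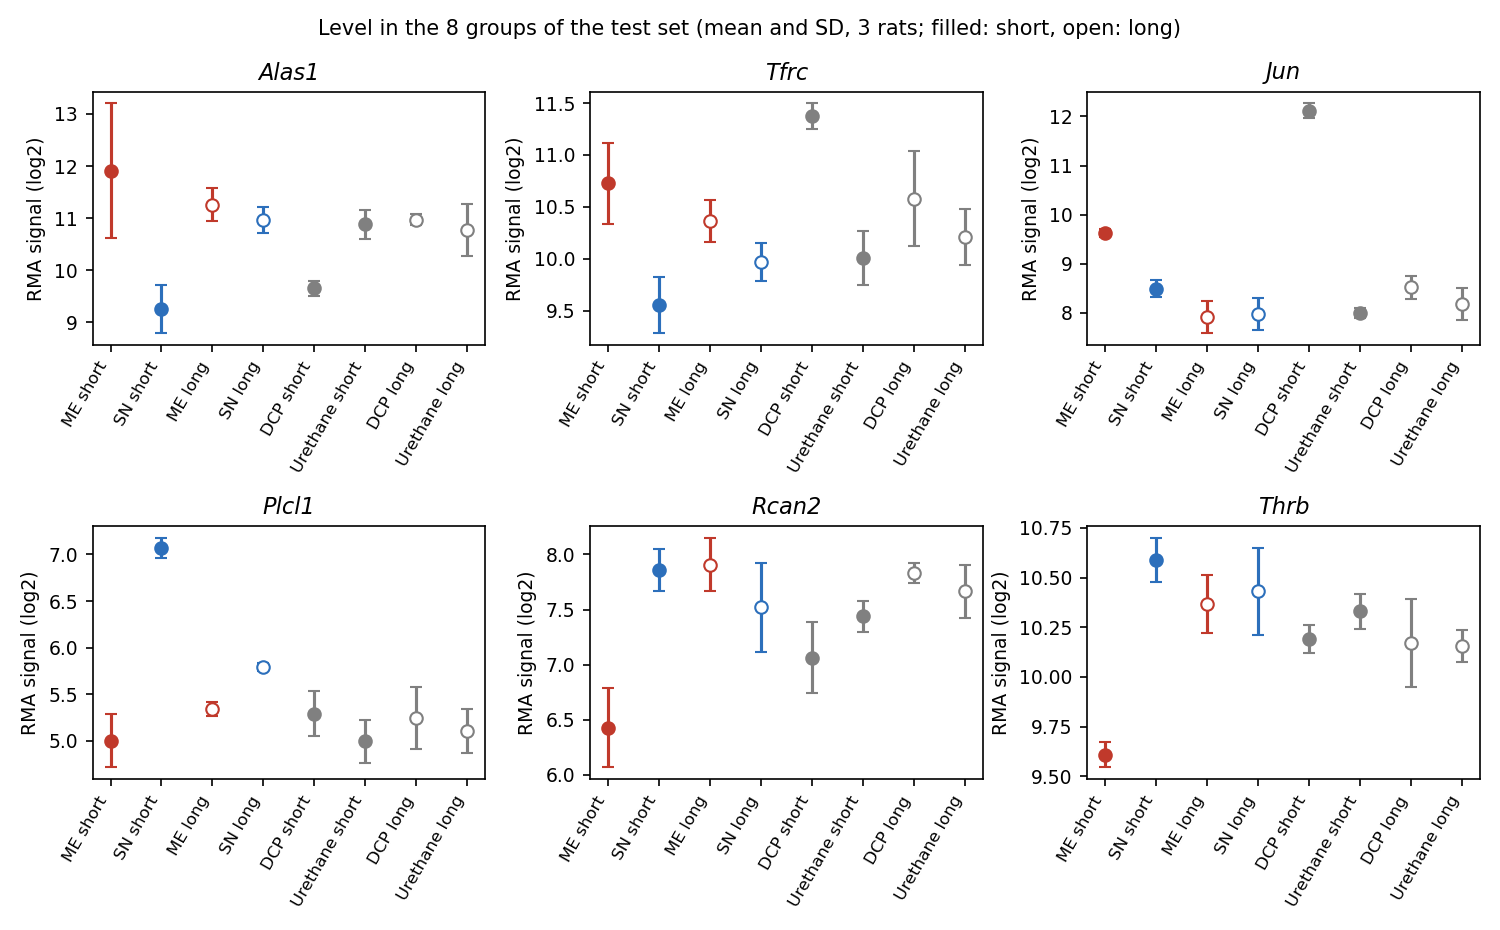
Mean log2 signal with SD (3 rats per group) of 6 named genes in the 8 groups of the test set, ME in red, SN in blue, DCP and Urethane in grey, short filled and long open. Alas1 is highest in ME short (11.9) and lowest in SN short (9.26), Plcl1 stands out in SN short (7.07), and Thrb in ME short (9.61).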

How the data were processed

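Liver RNA of 65 rats was measured, and the 24 test set arrays were fitted. The authors deposited log2 signals for 31099 probe sets made with RMA, per the series' design text and the submitters' processing notes, which give no version. Lowest array values (2.28 to 2.40 in the test set, 3.33 to 3.41 in the genotoxic and 3.23 to 3.30 in the nongenotoxic set) did not overlap, so levels across sets carry a set difference. The number of arrays limits the precision. Groups came from the titles. Of the probe sets, 20826 had 1 gene symbol in the platform annotation, 436 several and 9780 none, and 57 controls were left out, which gave 14217 genes. The filter kept genes above log2 5.65 in at least 2 test set arrays. Fits used limma 3.58.1 in R 4.3.3 (lmFit, plain eBayes, 16 residual and 2.95 prior degrees of freedom), two-sided with Benjamini-Hochberg adjustment, and tables and plots Python 3.11.15, pandas 2.3.3 and matplotlib 3.10.9. On simulated data with 200 of 10213 genes changed, the fit recovered 95% at log2 1 and 99% at log2 2 with 10 false calls. The simulated errors were independent and normal, with the same spread for a gene in every group. They hold no shifts shared by many genes of 1 rat, so the figures do not cover such shifts in these data.

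Named genes are the 14 highest and 14 lowest called genes without overlap of rats and without bare locus numbers, the called members of each list (up to 4), and, for a list with none, its 2 largest differences. The compared groups, the named gene rule and the 35 lists were chosen with earlier results of these data known. Of the 28 named genes 24 matched a RefSeq promoter. Replicate numbers did not pair rats: deviations of same-numbered rats from their group means correlated at -0.34, -0.12 and -0.22. Alternatives were filters, probe set summary, eBayes settings, scaling, which arrays entered, a replicate block and each rat left out. The clock covariate and ME rat 3 alone were added after the data were seen.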

Additional observations from a re-analysis of the deposited data

Results flagged for a closer look

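The difference between ME and SN was itself different at short and at long in 12 genes, by limma's interaction term after Benjamini-Hochberg adjustment. Of the 12, 10 were over 100 kb long, as were 12.5% of all tested genes. Among these long genes Plcl1, Rcan2, Stxbp6, Thrb, Cwc27, Myo6, Zfp407 and Prkdc were already called lower in ME short than in SN short. On the same arrays their lengths therefore largely repeat the pattern at short. Values are the difference at short minus that at long, log2 ± SE. Outside the naming rule, Cwc27, Fhit, Wwox, Myo6, Prkdc, Zfp407 and Lysmd2 are named after their values were seen. No explanation of the differences was tested.

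In 9 of them the difference was lower at short than at long. At long Plcl1 still differed by -0.45, with no overlap of rats (5.27 to 5.42 in ME long, 5.75 to 5.84 in SN long). Thrb (-0.06) and Ero1a (-0.09) lay on the same side. On the opposite side lay Rcan2 (0.39), Cwc27 (0.18), Prkdc (0.17), Zfp407 (0.09), Myo6 (0.08) and Stxbp6 (0.03). Plcl1 was at -1.61 ± 0.24, Rcan2 at -1.82 ± 0.29, Stxbp6 at -1.08 ± 0.18 and Thrb at -0.92 ± 0.16 (adjusted p = 0.00428, 0.0111, 0.0155 and 0.0181). Cwc27, a spliceosomal cyclophilin gene of 211 kb, was at -0.92 ± 0.13 (adjusted p = 0.00428) and averaged log2 5.59 in ME short and 6.34 in SN short, against 6.08 in ME long and 5.90 in SN long. Myo6, an unconventional myosin gene, was at -0.999 ± 0.17 (adjusted p = 0.0191). Zfp407, a zinc finger gene, was at -0.65 ± 0.12, Prkdc, the catalytic subunit of a kinase in DNA end joining, at -0.56 ± 0.11, and Ero1a at -0.77 ± 0.14 (adjusted p = 0.0353 each).

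Fhit and Wwox, which are very long and span fragile sites in the human genome, went the other way. Fhit was at 1.64 ± 0.24 and Wwox at 1.29 ± 0.18 (adjusted p = 0.00428 each). Neither was called at short (-0.25 and -0.11). At long Fhit averaged 4.53 ± 0.21 in ME long and 6.43 ± 0.11 in SN long, and Wwox 4.67 ± 0.13 in ME long and 6.07 ± 0.07 in SN long (SD, n = 3 each). Lysmd2, a gene of 15.4 kb, was at 1.06 ± 0.20 (adjusted p = 0.0353), with a difference of 0.52 at short and -0.54 at long.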

How the results depend on the processing

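The limits are few rats, unequal doses and no controls in the test set, and groups of 3 rats give a noisy count. Of 173 calls, a stricter filter left 103 (100 of them among the 173), and a fit of only the compared groups left 0 by limma, with 1136 genes at an unadjusted p under 0.05. The clock covariate gave 107 (17 higher, 90 lower) and ME rat 3 alone 26. Leaving out 1 rat gave 56 to 291. The replicate block gave 154 (29 higher, 125 lower), and rats share only a number. Of the 28 named genes 28 kept their call after quantile normalization, 24 with the block, 18 with the clock covariate, 13 without SN rat 2, 16 without ME rat 1 or SN rat 1, 18 without SN rat 3 and 6 with ME rat 3 alone. None of the 28 changed direction. They were chosen for no overlap of rats, so leaving out rats could not reverse them and nothing is read from that.

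Against DCP short and Urethane short, only the compared groups gave 1029 for ME short (1958 reported), and the block 1857. SN short gave 1549 to 2262 without 1 rat (2350 reported), and the block 2255. With arrays shifted to 1 median 728 of 1698 calls were higher in ME short and 799 of 1822 in SN short. The interaction count of 12 was 21 after quantile normalization, 20 with all arrays in 1 fit, 4 with only the compared groups, 11 with the block and 7 to 78 without 1 rat, with 18 without ME long 1 and 7 without ME long 3 or SN long 1.

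Some uncalled values turned sign. With ME rat 3 alone these were Rprm (0.52), Osgin1 (0.0168), Cyp1a1 (-0.21), Dbp (-0.70), Tat (-0.62), Gpam (0.11), Cdc20 (0.16), Foxa1 (0.0075) and Timp1 (-0.10), and with the clock covariate Dbp (-0.0312). Without 1 rat Sult2a2 ran from -0.92 to 0.0133, Pnpla3 from -0.0641 to 1.25, Myh1 from -0.0487 to 0.30 and Wwox from -0.28 to 0.0752. The causes were not tested.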

Other observations

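Some further genes called lower in ME short are named here with their known roles. They were picked from the called genes after their values were seen, by limma with Benjamini-Hochberg adjustment, and no family was tested as a group. The unconventional myosin gene Myo1e (192 kb) was at -0.68 ± 0.10 (adjusted p = 0.00186), beside Myo5b and Myo6. Magi3, Shank2, Pard3, Magi1 and Afdn, which encode scaffold proteins, were at -0.86, -0.80, -0.70, -0.61 and -0.38. The guanine exchange factor gene Trio was at -0.85 ± 0.12 (adjusted p = 0.00144). Other called genes were the phosphodiesterase gene Pde4d, the longest of the called genes at 1514 kb (-0.88), and the phospholipase C genes Plcb1 (-0.62) and Plce1 (-0.49). Nuclear receptor genes beside Thrb were Esrrg (-1.44 ± 0.36) and Nr3c2, the mineralocorticoid receptor (-0.70 ± 0.13). In Esrrg the rats of the groups overlapped, which kept it out of the named lowest genes. Transcription regulators were Tead1 (-0.72), Arid1b (-0.65) and Zfhx3 (-0.55).

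Short genes were called lower too. Gja1, the connexin 43 gene, of 12.5 kb, was at -0.70 ± 0.10 (adjusted p = 0.00186). The glycolysis gene Pfkl, of liver phosphofructokinase, was at -0.67 ± 0.11, and Pdk2, a kinase gene that switches off pyruvate dehydrogenase, at -0.39 ± 0.08, while Pdp2, which does the opposite, was higher. Among further genes called higher were the cytochrome gene Cyp4b1 (0.66 ± 0.10, adjusted p = 0.00217), the estrogen-related receptor gene Esrra (0.40 ± 0.10, adjusted p = 0.0478) and the granzyme gene Gzmm (0.48 ± 0.08, adjusted p = 0.00452).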
